A study of Mus musculus with 35 samples.

Results

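Brg1 is the ATPase of the SWI/SNF chromatin remodelling complex and is found at promoters and at distal regulatory elements. The peaks described here are Brg1 peaks of the newborn (P0) mouse retina that carried acetylation of histone H3 lysine 27 (H3K27Ac) and lacked trimethylation of histone H3 lysine 4 (H3K4me3). A Brg1-FLAG peak was included when it shared at least 1 bp with an H3K27Ac peak in both wild-type P0 libraries and with no H3K4me3 peak in either wild-type P0 library. The peaks were thus selected on their P0 histone marks, and the rule left 1186 of 50861 Brg1 peaks. They are called distal acetylated Brg1 peaks below, where distal means only that no P0 H3K4me3 peak overlapped.

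H3K27Ac marks active promoters and active enhancers, whereas H3K4me3 is concentrated at promoters, so that acetylation without H3K4me3 is commonly read as a sign of an active enhancer. H3K27me3 is laid down by Polycomb repressive complex 2 and marks silenced developmental genes. A lysine carries either acetylation or methylation, so that overlapping peaks of H3K27Ac and H3K27me3 come from different histone tails, alleles or cells. Between P0 and P21 the last retinal progenitor cells leave the cell cycle and rods, bipolar cells and Müller glia mature.

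Brg1 was measured with an anti-FLAG antibody in retinae of Brg1-FLAG knock-in pups at P0, in 1 library. Wild-type retinae were profiled for histone marks at P0, P12, P14 and P21, and Brg1-deficient retinae, at P12 only, came from Chx10-Cre; Brg1 Lox/Lox mice. H3K27Ac had 2 libraries at each of P0, P14 and P21, 1 wild-type library at P12 and 2 Brg1-deficient libraries at P12. H3K4me3 had 2 libraries at P0, P14 and P21 and 1 of each genotype at P12, and H3K27me3 had 2 wild-type libraries at every stage and 1 Brg1-deficient library. Chx10-Cre acts in retinal progenitor cells in a mosaic pattern, so Brg1-deficient retinae also held cells with Brg1. The labels name a different H3K27me3 antibody at P12 from that at P0, P14 and P21. Nothing in the labels says which replicates came from separate litters, and whole retina mixes cell types, so fewer cells with a mark and less mark per cell cannot be told apart.

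The peak lists do not give sequencing depth, which is unknown here. The number of H3K27Ac peaks differed more between the replicates of P14 and of P21 than between those stages. The H3K27Ac lists held from 17433 to 50005 peaks, and at P14 and at P21 replicate 1 was the short list, with 17433 and 18718 peaks, against 50005 and 45833 in replicate 2. The H3K4me3 lists held from 18534 to 24124 peaks and the H3K27me3 lists from 12188 to 30996 domains. The second P14 list of H3K27me3 held no domain on the X chromosome, where 5 of the 1186 peaks lie. A peak that was not listed may have been below the threshold of the peak caller, and shares from the short lists are therefore given beside those from the long lists.

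The distal acetylated Brg1 peaks were strong and long. Their median Brg1 fold enrichment over background was 6.06, with a range from 2.56 to 17.7. Brg1 peaks that carried both marks in both P0 replicates, of which there were 12158, had the same median of 6.06, and the 24782 Brg1 peaks with neither mark in any P0 library had a median of 3.93. The median length was 1437 bp, against 903 bp with both marks and 417 bp with no mark. Longer Brg1 peaks meet the overlap rule more easily, so length is not independent of the rule, and its part was not tested. The longest, at chr8:122930741-122953160 (mm9), was 22420 bp and was also the longest of all Brg1 peaks.

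The nearest P0 H3K4me3 peak lay at a median distance of 18.9 kb. Of the 1186 peaks, 66 (5.56%) were closer than 1 kb, 329 (27.7%) lay from 1 to 10 kb away, 532 (44.9%) from 10 to 50 kb and 259 (21.8%) at 50 kb or more. Leaving out the peaks under 1 kb changed the later shares of H3K27Ac by less than the spread between replicates. The name enhancer-like rests on these marks only, since H3K4me1 was not analysed here and no annotation of mm9 was used to place the peaks in genes.

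The P0 values that chose the peaks are given as a description. Their H3K27Ac fold enrichment had a median of 4.77 in replicate 1 and 6.04 in replicate 2, against 8.68 and 9.78 at Brg1 peaks with both marks. The Brg1 summit lay inside the H3K27Ac peak at 44.0% of them in replicate 1 and 82.2% in replicate 2, and at 77.3% and 91.5% of those with both marks. The H3K27Ac peaks covered a median of 24.2% of these Brg1 peaks in replicate 1 and 68.9% in replicate 2, against 55.7% and 79.8% with both marks. The weakest included peak, chr12:3780413-3780872, had H3K27Ac fold enrichments of 3.26 and 2.10. Just outside the rule were 186 Brg1 peaks with H3K27Ac in both libraries and H3K4me3 in only 1 of them. In 160 of these the H3K4me3 peak was in replicate 2, with a median fold enrichment of 4.55, where all Brg1 peaks with H3K4me3 had a median of 35.1.

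In each later library most distal acetylated Brg1 peaks had no listed H3K27Ac peak. In wild-type retinae 37.8% overlapped H3K27Ac at P12 (448 of 1186, Wilson 95% interval 35.1 to 40.6%). At P14 the share was 13.9% in replicate 1 and 44.9% in replicate 2, and at P21 it was 13.7% in replicate 1 and 34.7% in replicate 2. The replicates of a stage differed by more than the stages did, and the lower shares belonged to the short lists. With the 17433 strongest peaks of each list the shares lay from 13.3% to 17.8% over all 7 later libraries. Where a long list held a later peak it was lower than at Brg1 peaks with both marks, with a median fold enrichment of 5.19 at P12, 5.12 in P14 replicate 2 and 4.99 in P21 replicate 2, against 10.5, 14.7 and 8.98. In the short lists the medians were 7.12 against 7.64 in P14 replicate 1, and 6.41 against 5.80 in P21 replicate 1, where the distal acetylated peaks were the higher.

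Brg1 peaks with both marks kept H3K27Ac far more often. Their shares in wild-type retinae were 93.0% at P12, 68.5% and 97.3% at P14, and 55.8% and 93.5% at P21. In the Brg1-deficient P12 libraries they were 96.3% and 95.8%. Over the 7 libraries after P0 the share of distal acetylated peaks was lower by a mean of 53.2 percentage points (SD 5.34, n = 7 libraries) and lower in 7 of 7 libraries. An exact sign-flip permutation test over libraries gave a two-sided p = 0.0156, which is the smallest that 7 libraries allow (Benjamini-Hochberg adjusted p = 0.0195 over the 5 tests of this kind). The same Brg1 peaks enter every library, so the libraries are not fully independent. The difference had the same direction within each tertile of P0 H3K27Ac height, with means of -41.9, -53.1 and -22.7 points from the lowest to the highest tertile, the highest holding only 7 distal acetylated peaks. Within tertiles of Brg1 peak length, an alternative added after seeing the data, the means were -62.0, -55.1 and -42.5 points. Brg1 peaks with no mark at P0 overlapped H3K27Ac at P12 in 15.1% of cases.

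**Figure D1:**
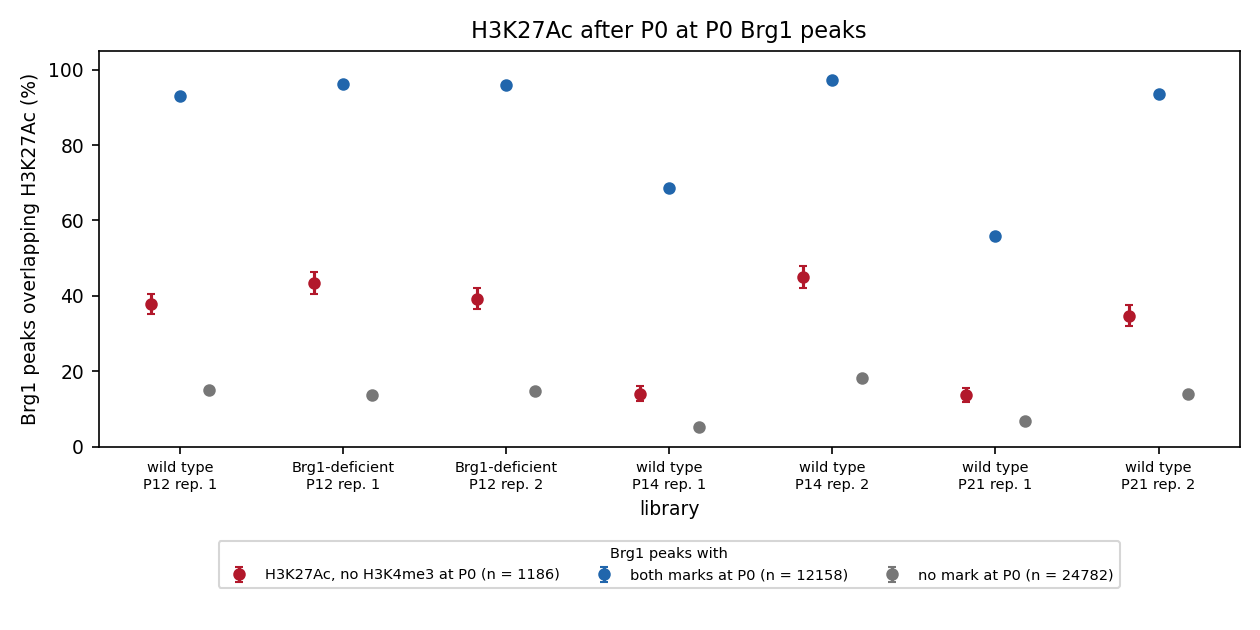
Share of P0 Brg1 peaks that overlapped an H3K27Ac peak in each of the 7 libraries after P0, in percent, for Brg1 peaks with H3K27Ac and no H3K4me3 at P0 (red), with both marks (blue) and with no mark (grey). Bars are Wilson 95% intervals, which cover counting error only; the red points lie between 13.7% and 44.9%, below the blue points in every library, and fall with the short lists of replicate 1 at P14 and P21.

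Counted peak by peak, 504 of the 1186 (42.5%) overlapped H3K27Ac in none of the 7 later libraries, and 10.8% in all 7. For Brg1 peaks with both marks these numbers were 189 (1.55%) and 6467 (53.2%). The distal acetylated peaks thus held 504 with acetylation listed only at P0, a smaller set with it listed throughout, and 554 between them. The set listed throughout could not exceed the shares of the short lists. These were 13.9% in P14 replicate 1 and 13.7% in P21 replicate 1, against 68.5% and 55.8% with both marks. Acetylation was listed in 5 of the 7 later libraries at 120 distal acetylated peaks and in 6 at 57.

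**Figure D2:**
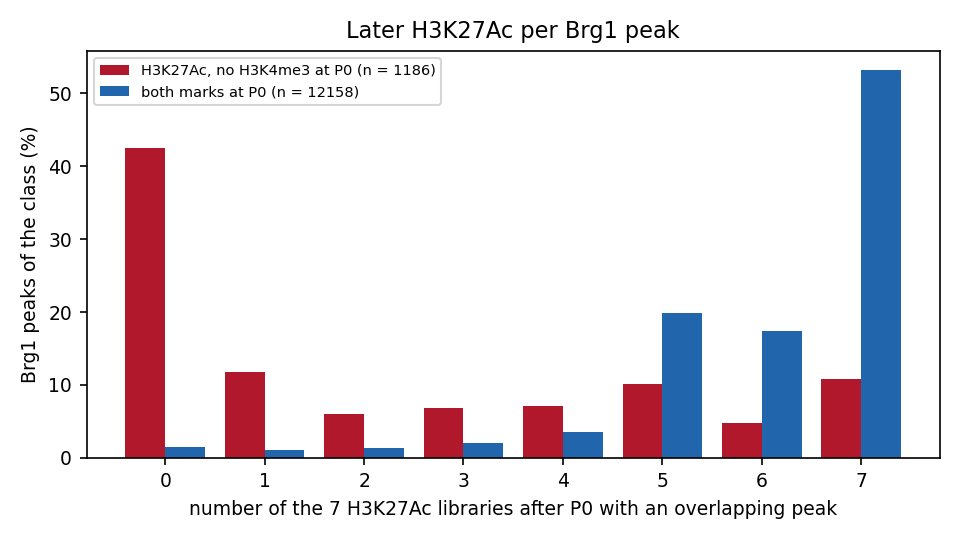
Number of the 7 H3K27Ac libraries after P0 (x axis) in which a Brg1 peak overlapped an H3K27Ac peak, as the percent of the peaks of each class (y axis). The red bars, Brg1 peaks with H3K27Ac and no H3K4me3 at P0, are highest at 0 libraries (42.5%), and the blue bars, Brg1 peaks with both marks, at 7 libraries (53.2%).

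Peaks acetylated in all later libraries had stronger and longer Brg1 peaks at P0 than those acetylated in none. The median Brg1 fold enrichment was 7.06 for the peaks acetylated in all later libraries and 5.64 for the 504 acetylated in none, and the median lengths were 2050 bp and 1152 bp. In wild-type P12 retinae H3K27Ac was present at 27.9% of the peaks in the lowest tertile of Brg1 fold enrichment, at 39% in the middle and at 46.3% in the highest. For Brg1 peak length these shares were 26.5%, 37.7% and 49.1%. Longer peaks have more bases that can meet an H3K27Ac peak, and the part of length in these shares was not tested. Peaks nearer to a P0 H3K4me3 peak also kept the mark more often, with 50.5% at 1 to 10 kb, 34.0% at 10 to 50 kb and 28.2% at 50 kb or more, although the 66 peaks under 1 kb had 42.4%. The height of H3K27Ac at P0 showed no such order, with 39.5%, 38.5% and 35.4% from the lowest to the highest tertile. The replicate 2 libraries of P14 and P21 gave the same orders for Brg1 fold enrichment and length. The share with H3K27me3 also rose with both in every later library. In wild-type P12 replicate 1 it was 5.58%, 10.8% and 18.2% by tertile of Brg1 fold enrichment. By tertile of Brg1 peak length it was 5.81%, 9.37% and 19.5%.

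**Figure D3:**
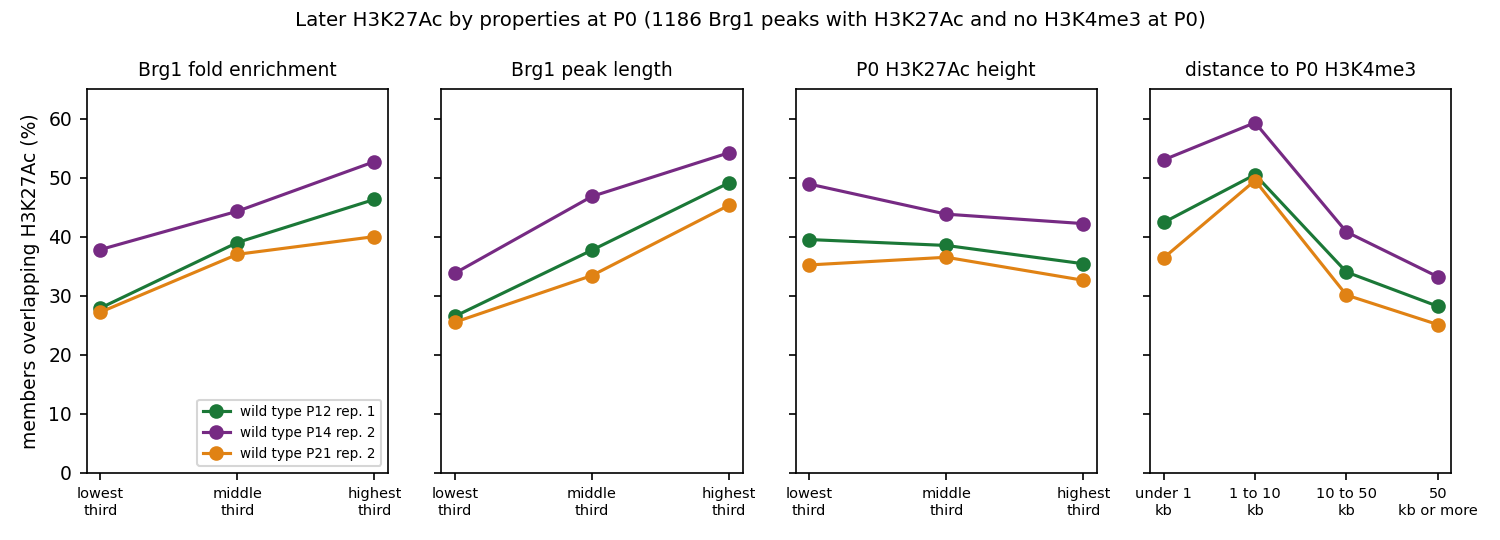
Share of the 1186 Brg1 peaks with H3K27Ac and no H3K4me3 at P0 that overlapped H3K27Ac later (y axis, percent) by tertile of Brg1 fold enrichment, Brg1 peak length and P0 H3K27Ac height and by distance to the nearest P0 H3K4me3 peak, in wild-type P12 and in replicate 2 of P14 and P21. The lines rise with Brg1 fold enrichment (27.9% to 46.3% at P12) and length (26.5% to 49.1%) and do not rise with P0 H3K27Ac height (39.5% to 35.4%).

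The 10 peaks with the highest Brg1 fold enrichment, from 13.5 to 17.7, showed each of these courses. At chr8:87337367-87339889, with the highest value of 17.7, H3K27Ac fold enrichment was 5.72 and 3.29 at P0 and 9.10 in wild-type P12. It was 15.0 and 9.59 in the Brg1-deficient libraries, 11.4 and 20.3 at P14, and 7.19 and 9.25 at P21. This peak also gained H3K4me3, which was absent in both P0 libraries and listed in all 6 later ones at fold enrichments from 4.0 to 11.4. H3K27me3 was listed there in P0 replicate 1 and in no other library.

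At chr10:61676215-61682278 H3K27Ac was highest at P0, at 14.3 and 15.2, and was 6.83 in wild-type P12, 12.6 and 11.3 in the Brg1-deficient libraries, 8.25 and 5.66 at P14 and 5.73 and 6.98 at P21. No H3K4me3 or H3K27me3 was listed there in any library. By contrast, chr17:25696014-25699693, with a Brg1 fold enrichment of 15.4, had H3K27Ac at 4.28 and 8.16 at P0 and in none of the 7 later libraries. All 7 H3K27me3 lists after P0 covered it, and neither P0 list did.

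Peaks with the highest sustained acetylation were ranked by their lowest H3K27Ac height over all 9 libraries, after heights had been scaled to the same median over 6643 Brg1 peaks with a peak in every library. The leading 10 had lowest scaled heights from 7.04 to 8.20. The first of them, chr10:76262093-76265064, had fold enrichments of 9.72 and 14.4 at P0, 16.0 at P12, 15.7 and 13.8 in Brg1-deficient retinae, 14.4 and 12.3 at P14 and 5.31 and 11.2 at P21. The second, chr10:76265270-76266044, lies beside it and had the same H3K27Ac values in all 7 later libraries. Of the 5 longest distal acetylated Brg1 peaks, 3 were acetylated in all 7 later libraries. Among them was chr8:122930741-122953160, where the values after P0 ran from 11.6 to 21.5, against 6.96 and 7.07 at P0.

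A comparison from the side of the acetylated peaks used H3K27Ac peaks of P0 replicate 1 that overlapped a replicate 2 peak and no P0 H3K4me3 peak. A Brg1 peak overlapped 1842 of them and none overlapped the other 140. Those with Brg1 kept H3K27Ac more often. At P12 the shares were 36.3% with Brg1 and 17.9% without, at P14 14.7% and 3.57% in replicate 1 and 43.6% and 20.7% in replicate 2, and at P21 15.3% and 4.29% in replicate 1 and 34.0% and 15.7% in replicate 2. In Brg1-deficient P12 retinae they were 42.3% and 17.9% in replicate 1 and 37.5% and 15.7% in replicate 2. The 7 later libraries include these 2. The mean difference over the 7 later libraries was 18.3 points (SD 5.40, higher in 7 of 7, exact sign-flip permutation p = 0.0156, adjusted p = 0.0195).

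The H3K27Ac peaks with and without Brg1 also differed in length, and tertiles of length were added after seeing the data. Peaks with Brg1 had a median length of 288 bp and those without 228 bp. The difference was 22.7 points in the lowest tertile of H3K27Ac peak length and 14.1 in the middle. In the highest it was -0.208 points (SD 9.24, exact sign-flip permutation p = 0.953), and that tertile held only 14 peaks without Brg1. The median H3K27Ac fold enrichment at P0 was 4.60 with Brg1 and 4.53 without.

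Brg1-deficient P12 retinae were compared with wild-type P12 retinae to see whether acetylation at these sites depended on Brg1. H3K27Ac overlapped 43.4% of the distal acetylated peaks in Brg1-deficient replicate 1 and 39.3% in replicate 2, against 37.8% in the wild-type P12 library and 44.9% in wild-type P14 replicate 2. The Brg1-deficient shares lay between those of the 2 wild-type libraries of similar list length and nearest age. With the 40465 strongest peaks of each long list, an alternative added after seeing the data, the shares were 43.4% and 37.9% in Brg1-deficient P12, 34.5% in wild-type P12, 37.7% in P14 replicate 2 and 31.9% in P21 replicate 2. Both Brg1-deficient libraries were then above the 3 wild-type libraries, replicate 2 by less than 1 point.

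All 3 P12 libraries listed H3K27Ac at 342 peaks (28.8%), and none of them at 574 (48.4%). There were 59 peaks (4.97%) with H3K27Ac in both Brg1-deficient libraries and not in wild type, and 32 (2.70%) with it in wild type only. Over all Brg1 peaks these patterns made up 2.75% and 2.02%. With equal numbers of peaks the counts were 63 and 24. The first pattern asks for 2 libraries and the second for absence from 2, so the counts are not symmetric and were not tested against each other.

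Peak heights were compared with limma over all Brg1 peaks with an H3K27Ac peak in at least 2 of the 9 libraries, on log2(scaled fold enrichment + 3.08). Of 24524 Brg1 peaks tested, 0 (0%) differed between Brg1-deficient and wild-type P12 retinae at a Benjamini-Hochberg adjusted p under 0.05. At an unadjusted p under 0.05 there were 584 Brg1 peaks (2.38%), among them 41 distal acetylated peaks, 22 of them higher in Brg1-deficient retinae. All 1186 passed the filter through the P0 peaks that the rule required, and 574 of them had a height of 0 in all 3 P12 libraries and could not be called. In a fit of the P12 libraries alone 475 of the 1186 were tested, and limma called 0 of 20434 Brg1 peaks after adjustment. At an unadjusted p under 0.05 it then gave 1917 Brg1 peaks (9.38%), among them 65 of the 475, 59 of which were higher in Brg1-deficient retinae. That filter passes a peak listed in both Brg1-deficient libraries and not one listed in the wild-type library alone, so no direction is read from it.

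Between P21 and P14 in wild-type retinae limma likewise called 0 of 24524 Brg1 peaks (0%) after Benjamini-Hochberg adjustment, and 874 (3.56%) at an unadjusted p under 0.05, among them 27 distal acetylated peaks, 21 of them higher at P21. With no scaling there were 8 such peaks, 0 of them higher at P21, and without P14 replicate 1 there were 110, of which 17 were higher, so the direction turned with the setting. In a fit of the P14 and P21 libraries alone 390 of the 1186 were tested, and 0 of 19145 Brg1 peaks were called by limma after adjustment. At an unadjusted p under 0.05 there were then 190 (0.992%), among them 3 of the 390. With few libraries, and with heights of 0 for unlisted peaks, these results do not show that acetylation was equal.

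H3K4me3 was gained at few of these peaks. In wild-type P12 retinae 6.91% overlapped an H3K4me3 peak (82 of 1186, interval 5.60 to 8.50%) and in Brg1-deficient P12 retinae 3.96% (47, interval 2.99 to 5.23%). The shares at P14 were 3.96% and 3.88% in replicates 2 and 3, and at P21 10.5% and 3.88% in replicates 1 and 2. The wild-type P12 and P21 replicate 1 lists, with the higher shares, were also the longest after P0, with 22846 and 24124 peaks, and with the 18534 strongest peaks the P12 share was 3.79%. The new peaks were low, with median fold enrichments from 5.07 to 6.96 over the 6 later libraries, against 25.4 to 64.7 at Brg1 peaks with both marks.

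At 35 peaks (2.95%) H3K4me3 was listed in both P14 and both P21 libraries, as it was at 323 (1.30%) of the Brg1 peaks with no mark. All 35 also carried it in wild-type P12 and 33 of them in Brg1-deficient P12. H3K27Ac was listed at all 35 in the P12 libraries of both genotypes and in replicate 2 of P14 and P21, and at 33 in each short list. Their median Brg1 fold enrichment was 8.05 and their median length 2523 bp, against 5.96 and 1416 bp for the others. Of the 35, 4 lay under 1 kb from a P0 H3K4me3 peak.

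The highest mean was at chr7:107805309-107805667, where H3K4me3 fold enrichment was 14 in wild-type P12, 24.8 in Brg1-deficient P12, 9.85 and 26.2 at P14 and 68.0 and 19.4 at P21. The Brg1 peak there was short, at 359 bp, and weak, with a fold enrichment of 3.84. At chr1:157075730-157082854, a Brg1 peak of 7125 bp, the values were 41.3, 15.1, 26.6 and 14.4, 62.5 and 12.1 in the same order. At chr7:16465339-16468444 they were 43.6, 25.9, 26.4 and 16.9, 53.0 and 25.9, but a P0 H3K4me3 peak lay only 0.0600 kb away. At P21 replicate 1 was higher than replicate 2 at all 3 peaks, and over all Brg1 peaks with H3K4me3 its median fold enrichment was likewise higher, at 54.5 against 22.4.

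Brg1 peaks with no mark at P0 gained H3K4me3 less often than the distal acetylated peaks, with a mean difference of 2.75 points over the 6 later libraries (SD 1.24, higher in 6 of 6, exact sign-flip permutation p = 0.0312, the smallest that 6 libraries allow, adjusted p = 0.0312). This difference did not remain among peaks of like length, an alternative added after seeing the data. It was 0.120 points in the lowest tertile of Brg1 peak length (exact permutation p = 0.781), -1.22 in the middle (p = 0.0312) and -0.333 in the highest (p = 0.781). Between P21 and P14, limma on log2(scaled H3K4me3 fold enrichment + 5.60) called 34 of 20601 Brg1 peaks (0.165%), 32 of them (0.155% of those tested) higher at P21, and 0 when any P14 or P21 library was left out. Of the 1186 peaks 59 had H3K4me3 in at least 2 libraries and were tested, and 0 of them passed an adjusted p under 0.05. At an unadjusted p under 0.05 there were 14 of the 59, and 1321 of all Brg1 peaks tested (6.41%). The shares cannot be compared, because the 59 could pass the filter only through the P14 and P21 libraries under comparison, having no H3K4me3 at P0 by rule.

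H3K27me3 was nearly absent from the distal acetylated peaks at P0 and covered more of them later. At P0 the H3K27me3 domains overlapped 0.927% (11 of 1186) and 1.01% (12) of them in the 2 libraries. At P12 the shares were 11.6% and 7.93% in wild-type and 7.93% in Brg1-deficient retinae, at P14 5.82% and 13.5%, and at P21 7.34% and 8.6%. Every later library lay above both P0 libraries. With 2 libraries per stage no exact permutation test between 2 stages can go below p = 0.333. The P12 libraries used another antibody, and the later lists covered more of the genome (126.5 to 213.3 Mb, against 96.7 and 114.1 Mb at P0). Over all Brg1 peaks the shares were 17.5% and 20.5% at P0 and 28.7% in the highest later library. The distal acetylated peaks were chosen for P0 acetylation, which falls on the same lysine. Brg1 peaks with both marks, also chosen for P0 acetylation, had P0 shares of 13.7% and 17.7%. Whether the rule sets the low P0 share of the distal acetylated peaks was not tested. The 2 rises are therefore not compared in proportion. Whether the later shares rose more than over all Brg1 peaks was not tested.

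In each of the 9 libraries H3K27me3 was less frequent at distal acetylated peaks than at the other classes. At P21 it overlapped 15.7% and 17.7% of Brg1 peaks with both marks and 20.1% and 21.2% of those with no mark. The P0 libraries are not independent of the rule, since the acetylation that chose the peaks falls on the same lysine. In the 7 libraries after P0 alone, an alternative added after seeing the data, the mean difference was -10.2 points against both marks (SD 3.75, lower in 7 of 7) and -12.9 points against no mark (SD 1.21, lower in 7 of 7). For each the exact sign-flip permutation p was 0.0156, the smallest that 7 libraries allow. Over all 9 libraries the means were -11.2 (SD 3.93) and -13.1 points (SD 1.27), each with an exact permutation p of 0.00391 (adjusted p = 0.00977), a value that is reached only by counting the P0 libraries. Within tertiles of Brg1 peak length, also added after seeing the data, the differences over 9 libraries ran from -10.4 to -18.8 points against both marks and from -16.4 to -19.4 against no mark.

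**Figure D4:**
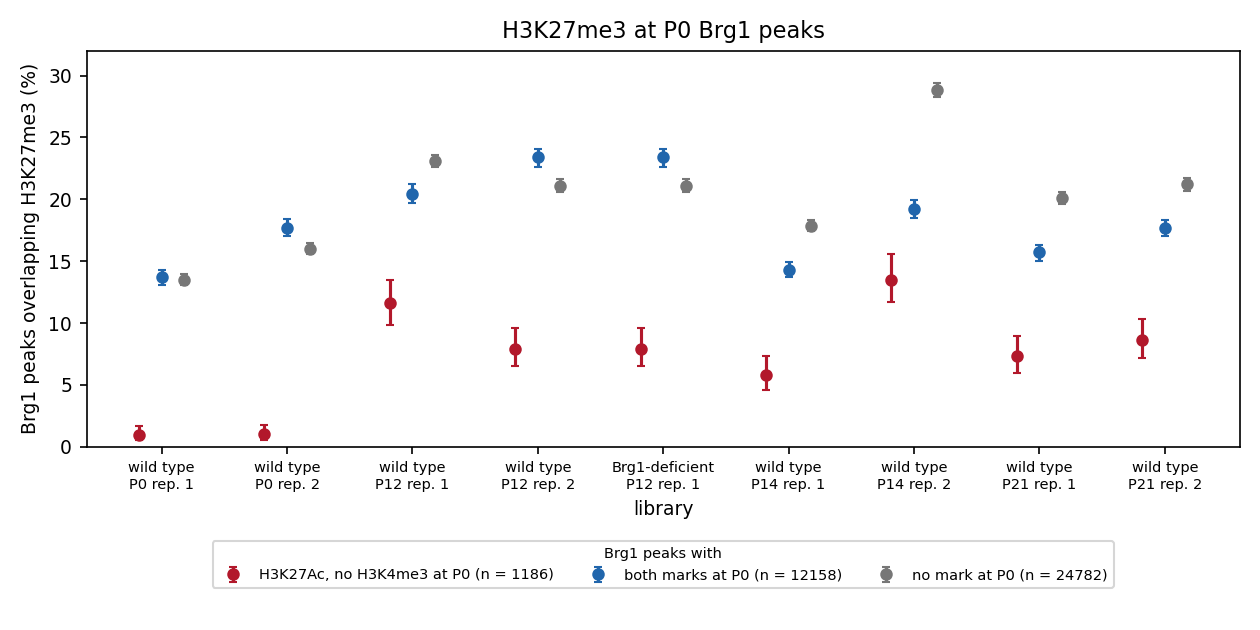
Share of P0 Brg1 peaks that overlapped an H3K27me3 domain (y axis, percent) in each of 9 libraries, for Brg1 peaks with H3K27Ac and no H3K4me3 at P0 (red), with both marks (blue) and with no mark (grey), with Wilson 95% intervals for counting error. The red points are at 0.927% and 1.01% at P0 and between 5.82% and 13.5% later, below the other classes in every library; P12 used another antibody.

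The later H3K27me3 was found mostly at peaks without later acetylation. Of the 504 peaks with H3K27Ac in none of the later libraries, between 10.5% and 21.4% overlapped H3K27me3 in the 7 libraries after P0. Of the peaks acetylated in all 7 the shares were between 0% and 1.56%. At 55 peaks (4.64%) H3K27me3 was listed in both P14 and both P21 libraries, 47 of which had none at P0, and the same held for 12.4% of Brg1 peaks with both marks and 14.3% of those with no mark. H3K27Ac in replicate 2 of P14 or P21 was present at 7 of the 55 (12.7%), and at 49.1% of the others. At Brg1 peaks with no mark these shares were 2.54% and 23.1%, and with both marks 90.0% and 98.7%, so that the lower share was not particular to the distal acetylated peaks. Of all 1186 peaks, 981 (82.7%) had no H3K27me3 in any of the 9 libraries.

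The few peaks with H3K27me3 at P0 took different courses. Of the 8 with a domain in both P0 libraries, 4 had it in all 7 later libraries. At chr7:26149964-26154570 H3K27Ac was 5.48 and 6.18 at P0 and was not listed later, and H3K27me3 was present in all 9 libraries. At chr17:56649451-56652601 H3K27me3 was likewise present in all 9, whereas H3K27Ac was listed in 5 of the 7 later libraries, at fold enrichments from 3.86 to 6.63. A P0 H3K4me3 peak lay only 0.240 kb from this Brg1 peak. H3K4me3 was listed on it at 8.24 in wild-type P12, 3.90 and 6.13 at P14 and 4.63 in P21 replicate 1. It was not listed in Brg1-deficient P12 or P21 replicate 2. At chr8:87246504-87251106 H3K27me3 covered the whole Brg1 peak of 4603 bp at P0 and was listed in no later library, and H3K27Ac, at 3.68 and 5.39 at P0, was 6.72 and 5.63 in Brg1-deficient P12 and 4.44 in P14 replicate 2 and not listed in wild-type P12.

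Some of the distal acetylated peaks, 198 of 1186 (16.7%), lay in clusters. There were 39 clusters, built from windows of 100 kb with at least 4 of them and joined where windows shared peaks. Whether this share differs from that of other Brg1 peaks was not tested. Peaks of a cluster are not independent, and 60 P0 H3K27Ac regions held 2 and 3 regions held 3 or more of the peaks. The clusters differed in how they changed after P0. The largest, chr2:166472269-166518422, held 9 peaks, of which at most 1 was acetylated in any later library, with no H3K27me3 in any. Of the 2 clusters with 8 peaks, chr10:76191589-76286235 had 6 or 7 of them acetylated in each later library and chr2:162937307-163063739 had 0 to 2.

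At chr9:83493846-83544278, 4 of 4 peaks kept H3K27Ac in 6 of the 7 later libraries and 3 of 4 in the other, with no H3K4me3 and no H3K27me3 in any library. At chr4:147678328-147732646 none of 5 peaks was acetylated after P0, and 4 or 5 of them overlapped H3K27me3 in every later library and 0 at P0. At chr7:31839049-31865001 all 4 peaks lost H3K27Ac and all 4 had H3K27me3 in every later library, after 0 and 1 of them at P0. At chr8:87246504-87339889, which holds the Brg1 peak with the highest fold enrichment named above, H3K27me3 overlapped 4 and 3 of 4 peaks at P0 and 0 later. The clusters named here were chosen after their values were seen.

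**Figure D5:**
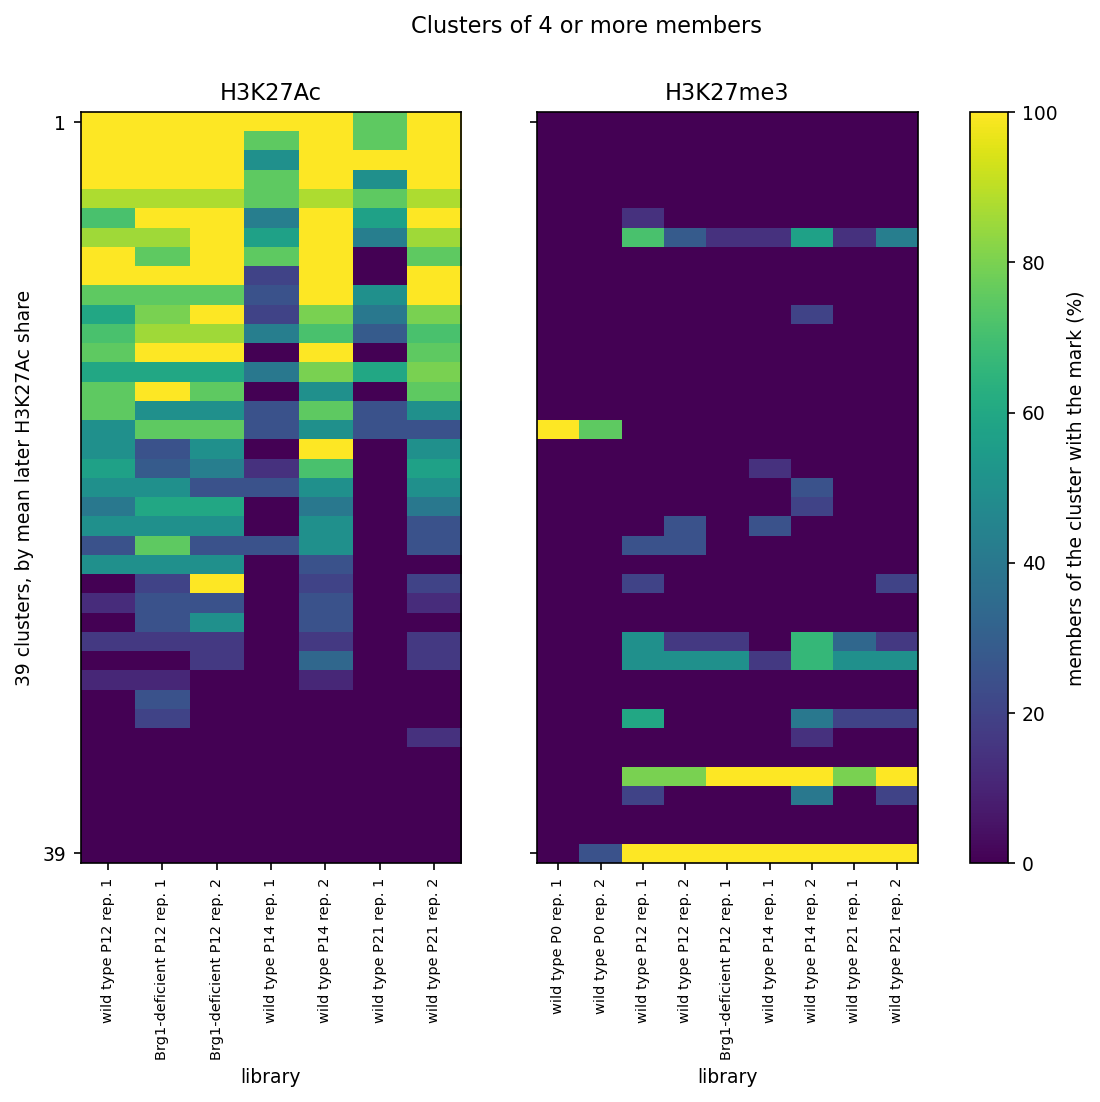
Share of the members of each cluster (colour, percent) that overlapped H3K27Ac after P0 (left) and H3K27me3 from P0 (right), for 39 clusters of 4 or more Brg1 peaks with H3K27Ac and no H3K4me3 at P0 within 100 kb (rows, ordered by mean later H3K27Ac share) in each library (columns). Clusters at the top kept H3K27Ac; 2 at the bottom have no later H3K27Ac and H3K27me3 at 4 or more of their members in every later library, and 1 has H3K27me3 at P0 only.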

How the data were processed

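Peak lists of 27 ChIP-Seq libraries were used. The submitters' processing notes name BWA 0.5.9-r26, Picard 1.65, SAMtools, MACS2 2.0.9, SICER 1.1 and the mm9 build, with no role or order given. For Brg1, H3K27Ac and H3K4me3 the authors deposited narrowPeak lists, called on each library alone, holding a fold enrichment (a ratio) at the summit beside p-values and q-values on a −log10 scale. Scores in the deposited lists were not used. For H3K27me3 the authors deposited domain lists whose value column is not named and was not used, so only positions entered.

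Overlaps of at least 1 bp were found in Python 3.11.15 (pandas 2.3.3, numpy 2.4.6) and checked against bedtools 2.31.1 for each list (0 differed). Shares have Wilson 95% intervals (scipy 1.17.1), which cover counting error only. Classes were compared by exact sign-flip permutation tests over libraries. Heights were the highest fold enrichment of an overlapping peak, 0 where none was listed, scaled to equal medians, and were tested with limma 3.58.1 (R 4.3.3) on log2(height + pseudocount), the 5th percentile of heights, over Brg1 peaks with a peak in at least 2 libraries, with Benjamini-Hochberg adjustment at 0.05. Such fold changes understate the change of low peaks. The scripts were tested on simulated data. Figures were drawn with matplotlib 3.10.9.

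Nothing says that replicates came from separate animals, so p-values measure the spread between libraries. The members, classes and comparisons were chosen with earlier results of these data known. Named peaks are the 10 members with the highest Brg1 fold enrichment, the 10 with the highest lowest-library scaled H3K27Ac, the 5 longest, the 5 with the highest later H3K4me3, the 5 with the most H3K27me3 overlap in both P0 libraries and the 5 with the lowest P0 H3K27Ac; the text gives examples of each. No annotation or sequence of mm9 was used here, so peaks were not assigned to genes. The P0 H3K27Ac and H3K4me3 values set membership and were not tested. Alternatives are in the closing section.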

Additional observations from a re-analysis of the deposited data

How the results depend on the processing

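Alternatives gave 155 planned and 14 added values on the same side as those reported; the others follow, with causes not tested unless the alternative's construction is given. The number of distal acetylated Brg1 peaks (1186) was 1212 to 5434 without each P0 library in turn, and 5434 without H3K27Ac replicate 1, since 1 H3K27Ac list then suffices. With equal numbers of strongest peaks H3K27Ac was at 16.3% in wild-type P12 (37.8%) and 13.1% in Brg1-deficient P12 (33.8% in both libraries), and H3K4me3 at 3.79% in wild-type P12 (6.91%) and 2.45% at P14 (3.37%). With the 40465 strongest peaks H3K27Ac in wild-type P12 was 34.5%. Asking for an overlap of 50% gave 3.76% for H3K4me3 at P14 and 0.590% for H3K27me3 at P0 (0.675%), and leaving out peaks within 1000 bp of H3K4me3 gave 3.12% at P14.

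Shares in both replicates became shares in 1 when either was left out. These were 39.3 to 43.4% for H3K27Ac in Brg1-deficient P12, 13.9 to 44.9% at P14 and 13.7 to 34.7% at P21; 3.88 to 3.96% for H3K4me3 at P14 and 3.88 to 10.5% at P21; and 0.927 to 1.01% for H3K27me3 at P0, 7.93 to 11.6% at P12, 5.82 to 13.5% at P14 and 7.34 to 8.60% at P21. At P14 and P21 the H3K27Ac shares thus rest on the short lists of replicate 1.

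By tertile of Brg1 peak length the H3K4me3 difference from peaks with no mark was 0.120, -1.22 and -0.333 points, and 2.31 to 2.95 without each library, where 5 libraries cannot reach 0.05. The difference between H3K27Ac peaks with and without Brg1 was -0.208 points in the longest tertile.

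For H3K4me3 heights at P21 against P14 limma called 34 Brg1 peaks, 0 without scaling, 115 with a pseudocount of 1 (5 of them distal acetylated peaks, all higher at P21), 5 with a peak in every library, 55 with only the groups compared, 65 with the summit inside the Brg1 peak, 0 with merged regions, 0 to 46 without each library in turn (0 without any P14 or P21 library) and 0 with the replicate block. Replicate numbers are not stated to pair samples, and the block, like every other alternative, called 0 Brg1 peaks for both H3K27Ac comparisons. Depth is unknown, so an unlisted peak is not evidence that a mark was absent.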

Other observations

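Peaks that differed between the P12 genotypes were chosen after their values were seen. The 3 with the highest H3K27Ac fold enrichment in both Brg1-deficient libraries and no wild-type P12 peak were chr6:113810088-113811288 (6.06 and 6.71, and not listed at P14 or P21), chr8:87246504-87251106 and chr2:162947269-162948316 (5.18 and 6.64, with 4.55 in P14 replicate 2). The reverse was highest at chr2:25970475-25970869, with 5.56 in the wild-type P12 library and no other peak after P0. At chr11:120565282-120568520 wild-type values were 5.09 at P12, 5.22 in P14 replicate 2 and 4.91 in P21 replicate 2, and neither Brg1-deficient library listed a peak. With 1 wild-type library at P12 these differences were not tested peak by peak beyond limma, which called none.

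Distal acetylated Brg1 peaks made up from 1.1% (X chromosome, 5 of 456) to 3.41% (chromosome 12, 77 of 2261) of the Brg1 peaks of a chromosome, and whether these shares differ was not tested. In the cluster at chr12:85872433-85890683, also chosen after its values were seen, H3K27Ac was listed at 0 of 5 peaks in wild-type P12, at 1 and 5 of them in the Brg1-deficient libraries, at 0 and 1 at P14 and at 0 and 1 at P21. The Brg1-deficient replicates thus differed from each other there.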
